A study of Mus musculus with 10 samples.

Results

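The citric acid cycle oxidises acetyl-CoA in the mitochondrial matrix and passes the electrons to the respiratory chain. In white adipocytes it also supplies citrate, which leaves the mitochondrion and is split in the cytosol to give acetyl-CoA for fatty acid synthesis. The 9 transcripts described here encode enzymes of the cycle or their close relatives. They are Cs, Idh1, Idh2, Idh3a, Ogdh, Suclg1, Suclg2, Fh1 and Mdh2, chosen by name from the 31285 genes of the deposited table, and each symbol matched 1 row. None passed the test between genotypes over all genes. Set against Idh3a or Suclg1 of the same library, Cs, Mdh2 and Fh1 each stood lower in every Ad-GHRKO library than in any Flox library. These ratios share transcripts and were picked after their values were seen. Of all tested genes with reads in every library, 1.86% were lower in this way against Idh3a and 1.5% against Suclg1.

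RNA sequencing was carried out on inguinal white adipose tissue, a subcutaneous depot, of 20-month-old mice on regular chow. There were 5 Ad-GHRKO libraries, from mice in which the growth hormone receptor gene was knocked out in adipose tissue, per the series title, and whose samples carry the genotype GHR Knockdown, and 5 Flox libraries from the comparison genotype. The sources used here give neither the promoter that drives the deletion nor whether each sample is a separate animal, so the p-values describe only how far these samples spread, which may be technical. Values are FPKM, fragments scaled by gene length and library size, which corrects for length and lets genes be set beside each other.

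Ghr, the targeted gene, had 12.99 to 20.1 FPKM in the Ad-GHRKO libraries, against 72.9 to 129.8 FPKM in the Flox libraries (log2 change -2.41, limma adjusted p = 6.54e-05), and the value covers the whole gene, also outside the deleted part. Recovered depth was 14.6 to 19.2 M reads in Ad-GHRKO and 15.8 to 19.02 M reads (M for mega) in Flox, and each of the 9 transcripts had between 870 and 15205 reads in every library. Reads on 26 listed skeletal muscle genes made up 18.4% in library Ad-GHRKO 1, 7.28% in Flox 3 and 10.5% in Flox 5, which are called muscle-rich here, 0.238% in Ad-GHRKO 5 and 0.00677% to 0.0186% in the others. Its summed level ran from 66.6 to 67082 FPKM in Ad-GHRKO and from 32.5 to 38911 FPKM in Flox, and 8 of its genes, Ckm and Myh4 among them, were at 0 in at least 1 library. The 10 adipocyte markers were all detected in every library, with sums of 3637 to 9807 FPKM in Ad-GHRKO and 7261 to 11258 FPKM in Flox, lowest in Ad-GHRKO 1. In a whole tissue, fewer cells of a type and less RNA per cell cannot be told apart.

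Cs encodes citrate synthase, which condenses acetyl-CoA with oxaloacetate and opens the cycle (ENSMUSG00000005683, chromosome 10, 128337734 to 128362479, plus strand, GRCm38). It had 99.7, 76.2, 58.6, 80.1 and 51.7 FPKM in Ad-GHRKO libraries 1 to 5, against 80.2, 100.3, 116, 101 and 138 FPKM in Flox libraries 1 to 5. The muscle-rich library Ad-GHRKO 1 was the only Ad-GHRKO library above the lowest Flox library. The means were 73.3 ± 18.9 FPKM in Ad-GHRKO and 107 ± 21.5 FPKM in Flox (SD, n = 5 each), with a log2 change of -0.56 (SE 0.20, 95% interval -1.01 to -0.11) that did not pass over all genes (limma adjusted p = 0.201). Csl, a copy of Cs in the annotation, reached at most 0.0926% of the level of Cs.

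Mdh2, the mitochondrial malate dehydrogenase that regenerates oxaloacetate (ENSMUSG00000019179, chromosome 5, 135778480 to 135790398, plus strand), had 127, 87.1, 67.5, 89.2 and 60.1 FPKM in Ad-GHRKO libraries 1 to 5, against 104, 129, 115, 97.8 and 155 FPKM in Flox libraries 1 to 5. As for Cs, 4 of the 5 Ad-GHRKO libraries lay below all Flox libraries and Ad-GHRKO 1 did not. The log2 change was -0.50 (SE 0.21, 95% interval -0.96 to -0.03, limma adjusted p = 0.270). Without Ad-GHRKO 1 the log2 change was -0.65 and passed (limma adjusted p = 0.0476), the 1 call among the 9 transcripts in that fit. There, 3.18% of all genes were called lower. That fit left out the muscle-rich library of Ad-GHRKO but kept the muscle-rich Flox 3 and Flox 5. Without all 3 muscle-rich libraries Mdh2 stood at -0.54 and did not pass (limma adjusted p = 0.110).

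Fh1, fumarate hydratase, which makes malate from fumarate (ENSMUSG00000026526, chromosome 1, 175600374 to 175625635, minus strand), had 41.7, 33.8, 26.7, 34.3 and 24.9 FPKM in Ad-GHRKO libraries 1 to 5, against 35.9, 43.4, 37.97, 38.6 and 55.6 FPKM in Flox libraries 1 to 5. Again Ad-GHRKO 1 alone lay above the lowest Flox library. The log2 change was -0.38 (SE 0.17, 95% interval -0.76 to -0.01, limma adjusted p = 0.296). The gene overlaps Kmo on the opposite strand without sharing exonic bases.

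The summed markers of brown adipocytes, like Cs, Mdh2 and Fh1, had Ad-GHRKO 1 as the only Ad-GHRKO library above the lowest Flox library. Summed over 5 genes (Ucp1, Cidea, Elovl3, Cox7a1 and Cox8b, of which skeletal muscle also expresses the last pair), they stood at 262, 43.6, 18.8, 35.8 and 25.9 FPKM in Ad-GHRKO libraries 1 to 5, against 182, 120.99, 148, 64.996 and 253 FPKM in Flox libraries 1 to 5. All Ad-GHRKO libraries but the muscle-rich Ad-GHRKO 1 lay below every Flox library, and Elovl3 was at 0 in at least 1 library. Within Flox the orders differed in part: Flox 1 was lowest for Cs and Fh1 but held 182 FPKM of these markers. Flox 4 was lowest for the markers and for Mdh2, and Flox 5, which is also muscle-rich, was highest for the markers and all 3 transcripts. The part of these cells in the values of Cs, Mdh2 and Fh1 was not tested.

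Suclg2 was the 1 transcript of the 9 whose libraries did not overlap between genotypes. It encodes the GTP-forming beta subunit of succinyl-CoA ligase, which turns succinyl-CoA into succinate (ENSMUSG00000061838, chromosome 6, 95473009 to 95718800, minus strand). Its levels were 12.1, 14.4, 11.2, 13.2 and 12.9 FPKM in Ad-GHRKO libraries 1 to 5, against 16.4, 20.1, 15.7, 14.8 and 15.4 FPKM in Flox libraries 1 to 5. Every Ad-GHRKO library lay below every Flox library, as it did for 3.35% of the 12785 genes tested, while 1.62% lay above and 4.97% were apart in either direction. The log2 change was -0.34 (SE 0.12, 95% interval -0.60 to -0.08) and did not pass over all genes (limma adjusted p = 0.181).

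**Figure D1:**
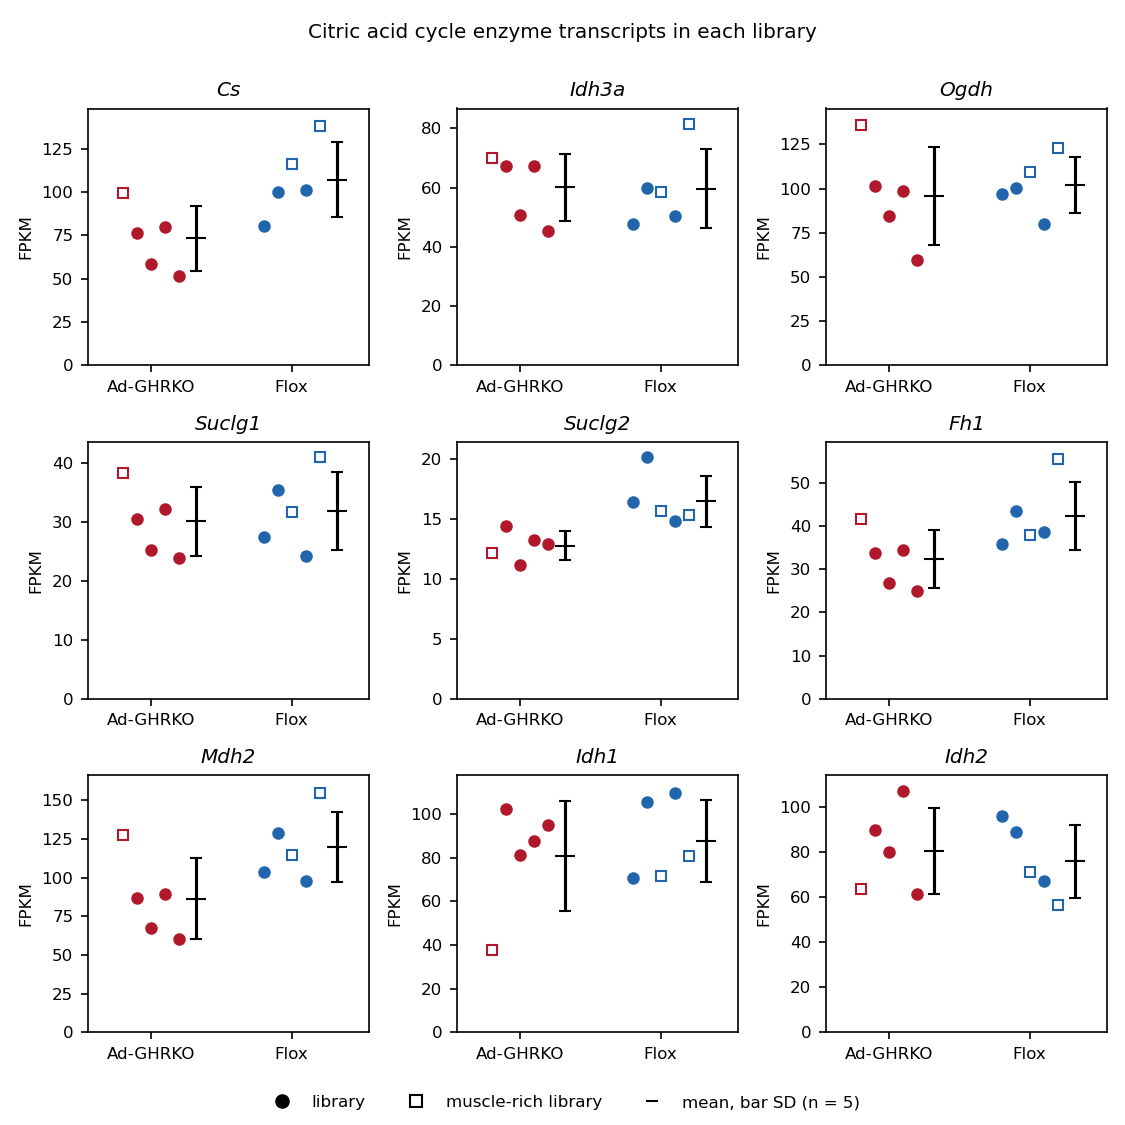
FPKM of each of the 9 enzyme transcripts (y axis, from 0) in Ad-GHRKO and Flox libraries, 1 point per library, open squares for the muscle-rich libraries, horizontal marks for means and bars for SD (n = 5 each). Suclg2 is the transcript whose groups stand apart, and for Cs, Mdh2 and Fh1 the muscle-rich Ad-GHRKO library, at 99.7, 127 and 41.7 FPKM, is the highest of its group.

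The subunit that Suclg2 and its ATP-forming counterpart Sucla2 both pair with is Suclg1, the alpha subunit (ENSMUSG00000052738, chromosome 6, 73248382 to 73276911, plus strand). Suclg1 had 38.4, 30.6, 25.3, 32.3 and 23.98 FPKM in Ad-GHRKO libraries 1 to 5, against 27.4, 35.4, 31.7, 24.2 and 41.05 FPKM in Flox libraries 1 to 5. The groups overlapped almost fully, with a log2 change of -0.08 (SE 0.17, 95% interval -0.46 to 0.30, limma adjusted p = 0.871). Sucla2 itself averaged 34.4 ± 8.14 FPKM in Ad-GHRKO and 35.98 ± 7.53 FPKM in Flox (SD, n = 5 each). The Suclg2 to Sucla2 ratio was 0.256, 0.434, 0.439, 0.372 and 0.422 in Ad-GHRKO libraries 1 to 5, against 0.606, 0.569, 0.430, 0.443 and 0.322 in Flox libraries 1 to 5. The ratio was lowest in each genotype in a muscle-rich library, Ad-GHRKO 1 and Flox 5. Over all libraries the mean log2 ratio differed by -0.29 (exact two-sided permutation p = 0.214, 0.643 after adjustment over the 3 ratios tested). It differed by -0.15 without Ad-GHRKO 1 and by -0.071 as a difference of medians. Within the 7 libraries that are not muscle-rich, 4 Ad-GHRKO and 3 Flox, the groups did not overlap and the difference was -0.36. The exact permutation p was 0.0286, the smallest that 4 against 3 allow. These libraries were chosen after their values were seen. Of all 12785 genes tested, 11.2% were themselves lower without overlap in these 7 libraries. The share of all ratios without overlap in them was not computed.

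Idh3a encodes the catalytic alpha subunit of the NAD-dependent isocitrate dehydrogenase of the cycle (ENSMUSG00000032279, chromosome 9, 54586334 to 54604661, plus strand). It had 70.2, 67.2, 50.7, 67.2 and 45.3 FPKM in Ad-GHRKO libraries 1 to 5, against 47.8, 59.9, 58.7, 50.4 and 81.6 FPKM in Flox libraries 1 to 5. The means of 60.1 ± 11.3 FPKM in Ad-GHRKO and 59.7 ± 13.3 FPKM in Flox were closer than the spread within either genotype (log2 change 0.01, SE 0.18, limma adjusted p = 0.981). The 95% interval of -0.39 to 0.41 covers folds of 0.765 to 1.33. Its partners in the enzyme, the regulatory subunits Idh3b and Idh3g, stood at -0.42 and -0.46 in log2 (limma adjusted p = 0.239 and 0.209), and both are named here after their values were seen. The ratio of Idh3a to Idh3g was 0.778, 0.855, 0.808, 0.842 and 0.853 in Ad-GHRKO libraries 1 to 5, against 0.519, 0.572, 0.597, 0.610 and 0.673 in Flox libraries 1 to 5, so that every Ad-GHRKO library lay above every Flox library. Of 7 ratios formed between a cycle transcript and a partner or counterpart, chosen after their values were seen, this was the 1 without overlap. Of all pairs of tested genes with reads in every library, 7.56% were without overlap.

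Ogdh, the first subunit of the 2-oxoglutarate dehydrogenase complex (ENSMUSG00000020456, chromosome 11, 6291633 to 6356642, plus strand), had 136, 101, 84.8, 98.4 and 59.6 FPKM in Ad-GHRKO libraries 1 to 5, against 96.8, 100.2, 109, 80.1 and 123 FPKM in Flox libraries 1 to 5. The highest and the lowest of all 10 libraries were both Ad-GHRKO, numbers 1 and 5. The log2 change was -0.12 (SE 0.21, 95% interval -0.58 to 0.34, limma adjusted p = 0.831). Ogdhl, a paralogue of Ogdh, was low and below the filter on low values, and is named after its values were seen. It had 81, 109, 76, 66 and 40 reads in Ad-GHRKO libraries 1 to 5, against 11, 26, 22, 14 and 20 reads in Flox libraries 1 to 5. Its levels averaged 0.978 ± 0.267 FPKM in Ad-GHRKO and 0.249 ± 0.0742 FPKM in Flox (SD, n = 5 each), and every Ad-GHRKO library lay above every Flox library. The same held for 1.62% of the genes that passed the filter. With no filter it passed as higher (log2 change 0.66, limma adjusted p = 0.0397). That fit tested 31285 genes and called 36 higher and 81 lower.

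Idh1 and Idh2 use NADP in place of NAD and yield NADPH, Idh1 in the cytosol and peroxisomes and Idh2 in mitochondria. Idh1 (ENSMUSG00000025950, chromosome 1, 65158616 to 65186500, minus strand) had 37.6, 102, 81.3, 87.5 and 94.8 FPKM in Ad-GHRKO libraries 1 to 5, against 70.8, 106, 71.5, 109 and 80.8 FPKM in Flox libraries 1 to 5. Ad-GHRKO 1 was the lowest of all, and the other Ad-GHRKO libraries lay inside the Flox range. The log2 change was -0.17 (SE 0.26, 95% interval -0.75 to 0.41, limma adjusted p = 0.805), and 0.08 without Ad-GHRKO 1. Idh2 (ENSMUSG00000030541, chromosome 7, 80094846 to 80115392, minus strand) had 63.7, 89.9, 80.3, 107 and 61.6 FPKM in Ad-GHRKO libraries 1 to 5, against 96.3, 89.2, 71.1, 67.3 and 56.4 FPKM in Flox libraries 1 to 5. The groups overlapped throughout (log2 change 0.08, SE 0.20, 95% interval -0.36 to 0.51, limma adjusted p = 0.892). The log2 ratio of Idh1 to Idh2 averaged -0.05 ± 0.52 in Ad-GHRKO and 0.21 ± 0.45 in Flox (SD, n = 5 each; exact permutation p = 0.460), and that of Idh2 to Idh3a 0.41 ± 0.33 in Ad-GHRKO and 0.35 ± 0.56 in Flox (exact permutation p = 0.817). Adjusted over the 3 ratios, these values were 0.690 and 0.817. The Idh1 to Idh2 difference, -0.25 over all libraries, was -0.073 without Ad-GHRKO 1.

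Across the 9 transcripts, 7 had negative log2 changes and 2 positive ones, with a median of -0.17, where the median over all 12785 genes tested was 0.04 and 44.3% of genes were negative. The limma fit called 0 of the 9, as did limma voom on the recovered reads, where the first fit called 2.19% of all genes, 1.42% as lower and 0.774% as higher. At an unadjusted p of 0.05, 4 of the 9 passed, all lower (Cs, Suclg2, Fh1 and Mdh2), against 8.49% of all genes lower by the same rule. All 9 transcripts passed the filter on low values. Rescaling each library to TPM moved the median change of all genes to 0.15 and the split of calls over all genes to 141 higher and 93 lower, against 99 higher and 181 lower in FPKM. Relative to the median of all genes, Cs stood at -0.59 on both scales and Mdh2 at -0.54 on both. TPM applies 1 factor to all genes of a library, so this agreement follows nearly from the method. With quantile normalization, Cs stood at -0.49 and Mdh2 at -0.41 relative to the median.

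**Figure D2:**
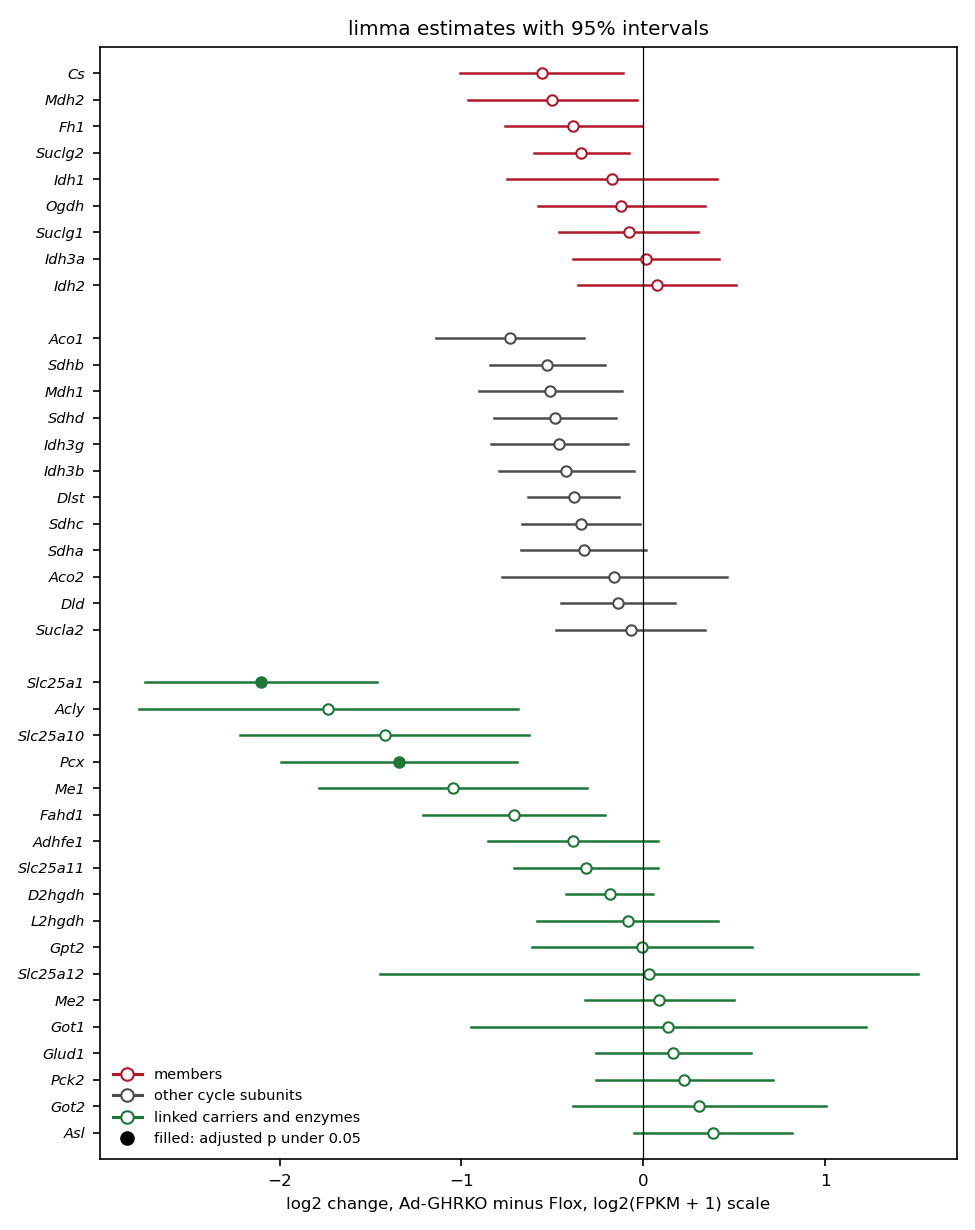
limma log2 change, Ad-GHRKO minus Flox, on the log2(FPKM + 1) scale (x axis) for the 9 cycle transcripts, 12 other cycle subunits and the linked carriers and enzymes reported here, points for estimates, lines for 95% intervals and filled points for adjusted p under 0.05. Slc25a1 at -2.10 and Pcx at -1.34 are the filled points, and the intervals of Cs, Mdh2, Fh1 and Suclg2 lie below 0.

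In the order of levels, Ad-GHRKO and Flox libraries differed at the top. In Ad-GHRKO, Ogdh was the most abundant (96.01 ± 27.8 FPKM), followed by Mdh2 (86.3 ± 26.1), Idh1 (80.7 ± 25.3), Idh2 (80.6 ± 19.01), Cs (73.3 ± 18.9) and Idh3a (60.1 ± 11.3), then Fh1 (32.3 ± 6.73), Suclg1 (30.1 ± 5.78) and Suclg2 (12.8 ± 1.22; SD, n = 5 each). In Flox, Mdh2 (119.9 ± 22.8 FPKM) and Cs (107 ± 21.5) came before Ogdh (102 ± 15.8), Idh1 (87.6 ± 18.6), Idh2 (76.1 ± 16.3) and Idh3a (59.7 ± 13.3), with Fh1 (42.3 ± 7.94), Suclg1 (31.9 ± 6.62) and Suclg2 (16.5 ± 2.13) at the end. Neighbours in either order overlapped in range, except Suclg1 over Suclg2 in both genotypes and Idh3a over Fh1 in Ad-GHRKO. Cs was above Idh3a, Idh3a above Fh1 and Fh1 above Suclg1 in every library of both genotypes.

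The 9 transcripts did not share 1 pattern over the libraries. Cs, Mdh2, Fh1, Ogdh, Suclg1 and Idh3a were on average higher in the muscle-rich libraries of each genotype, and Idh1 and Idh2 on average lower. In Ad-GHRKO 1, Mdh2 stood at 1.65 times the median of the other 4 Ad-GHRKO libraries, Cs and Ogdh at 1.48 times, Fh1 at 1.38, Suclg1 at 1.37 and Idh3a at 1.19 times. Suclg2 stood at 0.928, Idh2 at 0.748 and Idh1 at 0.412 times. The mean of Flox 3 and Flox 5 stood at 1.39 times the median of the other 3 Flox libraries for Idh3a, 1.33 for Suclg1, 1.30 for Mdh2, 1.27 for Cs, 1.21 for Fh1 and 1.198 for Ogdh, and at 0.948 for Suclg2, 0.721 for Idh1 and 0.715 for Idh2. The adipocyte transcript Fabp4, a fatty acid binding protein, stood at 0.353 times in Ad-GHRKO 1 and 0.653 times in Flox 3 and 5. The muscle-rich libraries were 1 of 5 in Ad-GHRKO and 2 of 5 in Flox.

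Within those 7 libraries the 4 Ad-GHRKO libraries lay below the 3 Flox libraries for Cs, Mdh2, Fh1 and Suclg2, and the groups overlapped for the other 5. Of all 12785 genes, 11.2% were lower without overlap in these 7 libraries. Cs averaged 66.6 ± 13.7 FPKM in Ad-GHRKO (n = 4) and 93.9 ± 11.8 FPKM in Flox (n = 3), with a log2 change of -0.50, close to -0.56 over all libraries. Mdh2 had -0.54, Fh1 -0.39 and Suclg2 -0.37, and 0 of the 9 passed in this fit (limma adjusted p from 0.110 to 0.995), where 3.12% of all genes were called lower. At an unadjusted p of 0.05, Cs, Mdh2, Fh1 and Suclg2 were lower in it, against 11.8% of all genes. In the muscle-rich libraries, Ad-GHRKO 1 held 99.7 FPKM of Cs and 127 of Mdh2, against means of 127 and 135 FPKM in Flox 3 and 5, with no test because 1 library stands on 1 side.

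**Figure D3:**
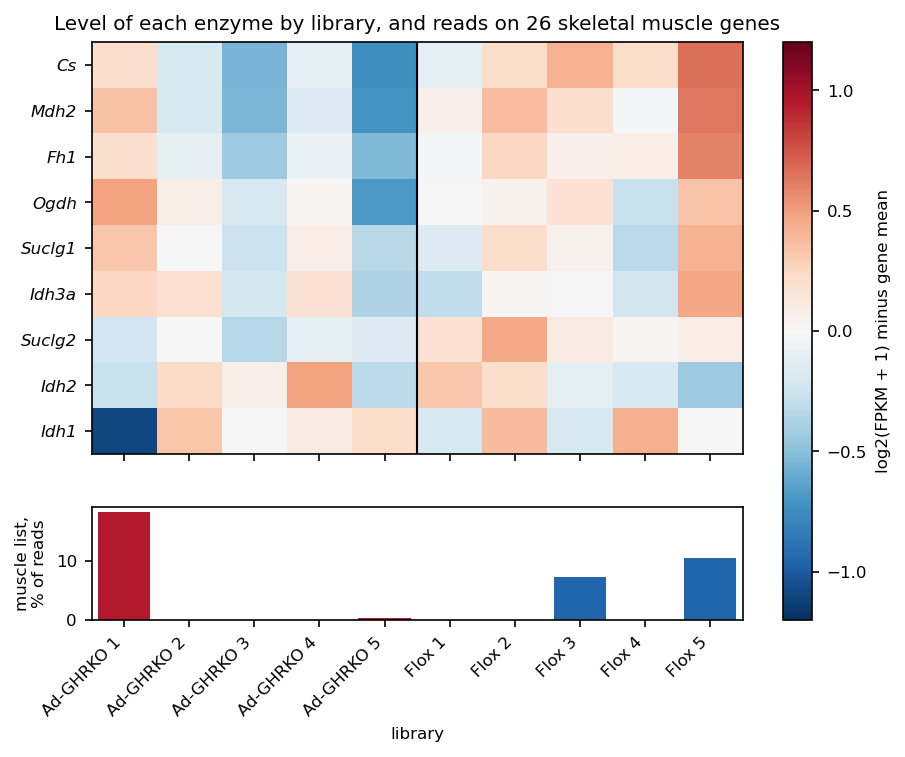
Deviation of each transcript from its own mean over the 10 libraries, in log2(FPKM + 1) (colour), with Ad-GHRKO libraries left of Flox libraries, above the percentage of reads on 26 skeletal muscle genes (bars, y axis from 0). Ad-GHRKO 1, Flox 3 and Flox 5 carry 18.4%, 7.28% and 10.5% muscle reads, and Idh1 is lowest in Ad-GHRKO 1 while Mdh2 is high there.

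Ratios within a library do not depend on how the library was scaled, and here they divided the transcripts. Of the 36 pairs among the 9, 7 had every Ad-GHRKO library apart from every Flox library, where 7.56% of all pairs of tested genes with reads in every library did. Pairs that share a transcript are not independent. Each of the 7 set Cs, Fh1 or Mdh2 against Idh3a, Suclg1 or Ogdh, and Cs, Fh1 or Mdh2 was the lower one in Ad-GHRKO. The pairs were counted after their values were seen and carry no test. Among partners of Idh3a, Ogdh and Suclg1, Idh3b, Idh3g, Dlst and Suclg2 stood at -0.42, -0.46, -0.38 and -0.34 in log2, near Fh1 at -0.38. The partners Dld, of the Ogdh complex, and Sucla2 stood at -0.14 and -0.07. Of the ratios of Idh3a, Ogdh and Suclg1 to these partners, all but Idh3a to Idh3g overlapped between genotypes. Idh1, Idh2 and Suclg2 were in none of the 7 pairs.

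The ratio of Cs to Idh3a was 1.42, 1.13, 1.16, 1.19 and 1.14 in Ad-GHRKO libraries 1 to 5, against 1.68, 1.68, 1.98, 2.01 and 1.69 in Flox libraries 1 to 5. Ad-GHRKO 1 was the closest to Flox but still below all of it. The mean log2 ratio was 0.27 ± 0.14 in Ad-GHRKO and 0.85 ± 0.13 in Flox (SD, n = 5 each). Among 12639 tested genes with reads in every library, 4.53% were, like Idh3a and Suclg1, higher against Cs in all Ad-GHRKO libraries than in any Flox library. The log2 ratio of Idh3a to Mdh2 was -0.86, -0.37, -0.41, -0.41 and -0.41 in Ad-GHRKO libraries 1 to 5, against -1.12, -1.10, -0.96, -0.96 and -0.92 in Flox libraries 1 to 5. The 4 Ad-GHRKO libraries that are not muscle-rich agreed closely here, and Ad-GHRKO 1 lay between them and Flox. Against Mdh2, 3.01% of the genes were higher in this way, among them Idh3a, Suclg1 and Ogdh, and against Fh1 2.68%, among them Idh3a and Suclg1. The reverse, lower in every Ad-GHRKO library, was met by 0.356% of genes against Cs, 0.396% against Mdh2 and 0.57% against Fh1. Against Idh3a, 1.86% of genes were lower, among them Cs, Fh1 and Mdh2, and 0.411% higher. Against Suclg1, 1.5% were lower, the same 3 among them, and 0.609% higher. Against Ogdh, 1.11% were lower, Mdh2 among them, and 0.625% higher. The log2 ratio of Suclg1 to Fh1 averaged -0.10 ± 0.04 in Ad-GHRKO and -0.41 ± 0.16 in Flox (SD, n = 5 each). That of Ogdh to Mdh2 averaged 0.15 ± 0.13 in Ad-GHRKO and -0.23 ± 0.14 in Flox, the pair with the narrowest gap, from -0.07 in Flox 3 to -0.01 in Ad-GHRKO 5.

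**Figure D4:**
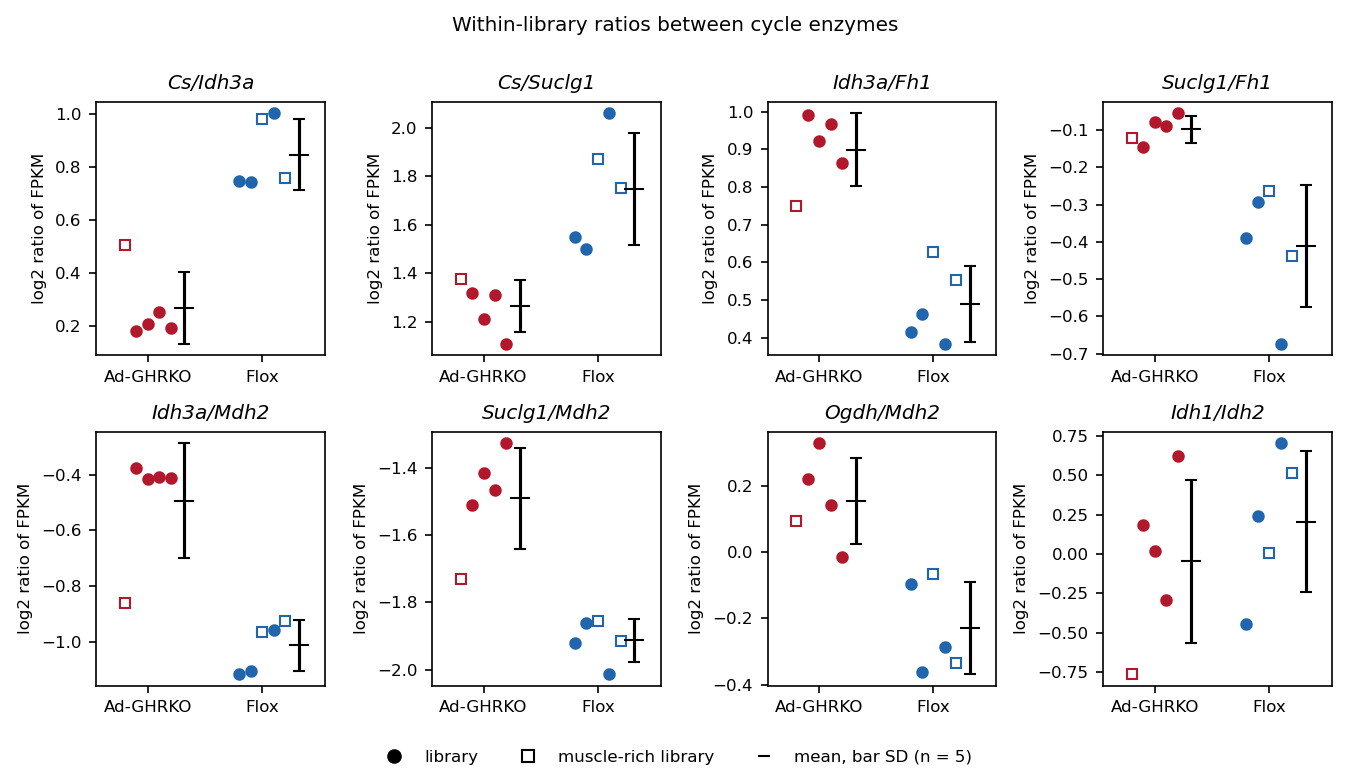
log2 ratio of FPKM between 2 transcripts of the same library (y axis) for the 7 pairs without overlap and for Idh1/Idh2 as a pair with overlap, 1 point per library, open squares for muscle-rich libraries, marks for means and bars for SD (n = 5 each). Cs/Idh3a averages 0.27 in Ad-GHRKO and 0.85 in Flox.

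Promoter windows of 3 of the transcripts that were lower in these ratios, Cs, Fh1 and Mdh2, and of Suclg1 from the other side, are shown to let the start regions be compared. They run from 250 bases before to 50 bases after a start site, 5′ to 3′ on the gene's strand, from RefSeq on GRCm38.p6, and capitals mark CCAAT or its reverse complement ATTGG. The windows are chr10:128337477-128337776 (plus strand) for Cs, chr1:175625586-175625885 (minus strand) for Fh1, chr5:135778399-135778698 (plus strand) for Mdh2 and chr6:73248255-73248554 (plus strand) for Suclg1.
Cs: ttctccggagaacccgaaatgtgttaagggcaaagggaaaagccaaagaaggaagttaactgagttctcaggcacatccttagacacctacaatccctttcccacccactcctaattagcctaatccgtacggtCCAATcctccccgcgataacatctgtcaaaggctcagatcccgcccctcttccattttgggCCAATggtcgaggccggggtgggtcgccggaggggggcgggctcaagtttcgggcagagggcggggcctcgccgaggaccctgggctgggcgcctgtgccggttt
Fh1: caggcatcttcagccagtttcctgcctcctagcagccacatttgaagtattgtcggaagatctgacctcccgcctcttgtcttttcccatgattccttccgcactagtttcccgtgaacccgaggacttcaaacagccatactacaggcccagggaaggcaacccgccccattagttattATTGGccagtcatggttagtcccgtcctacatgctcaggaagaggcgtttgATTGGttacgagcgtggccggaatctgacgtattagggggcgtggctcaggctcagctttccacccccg
Mdh2: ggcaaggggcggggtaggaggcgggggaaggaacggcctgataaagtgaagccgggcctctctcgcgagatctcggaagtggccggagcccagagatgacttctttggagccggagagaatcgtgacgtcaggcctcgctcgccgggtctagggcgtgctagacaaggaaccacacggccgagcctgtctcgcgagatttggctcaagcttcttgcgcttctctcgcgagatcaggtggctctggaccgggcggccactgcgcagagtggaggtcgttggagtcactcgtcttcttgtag
Suclg1: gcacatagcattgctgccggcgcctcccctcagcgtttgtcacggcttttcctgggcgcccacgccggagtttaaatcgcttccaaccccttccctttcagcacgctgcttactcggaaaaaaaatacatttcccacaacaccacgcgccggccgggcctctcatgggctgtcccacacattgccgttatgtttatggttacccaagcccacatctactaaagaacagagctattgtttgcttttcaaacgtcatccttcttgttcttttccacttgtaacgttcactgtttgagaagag
A window was matched for 8 of the 9 transcripts, Idh3a aside. CCAAT on either strand stood in 6 of the 8, all but Suclg1 and Mdh2, and in 37.4% of 32851 windows of the same length. The start sites of the Mdh2 and Suclg1 windows lay 169 and 123 bases downstream of the gene starts given above. For the other 6 the distance was 0 to 46 bases. The Mdh2 and Suclg1 windows therefore reach less far upstream of those gene starts, and CCAAT outside the windows was not searched for. The letters of the NRF1 motif, of the ERR half-site AAGGTCA, of the ETS core CCGGAAG, of the STAT motif TTCNNNGAA and of the SREBP motif TCACNCCAC were each in 0 of the 8, and in 4.60%, 4.72%, 8.86%, 8.30% and 1.24% of all windows.

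The other subunits of the cycle gave the setting, in a list that also held relatives of its enzymes, Aco1 and Mdh1 among them. Of 13 listed, 12 were tested, all 12 had negative log2 changes (median -0.40), and 0 passed in the limma fit and by voom. In the limma fit 8, Aco1 and Mdh1 among them, were lower at an unadjusted p of 0.05, against 8.49% of all genes. In 4 of the 12, Aco1, Sdhb, Sdhd and Dlst, every Ad-GHRKO library lay below every Flox library, against 3.35% of all genes. Aco1, the cytosolic aconitase that also acts as an iron-regulatory protein, had 23.4, 46.2, 41.3, 44.8 and 33.9 FPKM in Ad-GHRKO libraries 1 to 5, against 61.2, 70.6, 59.5, 66.1 and 53.3 FPKM in Flox libraries 1 to 5 (log2 change -0.73, SE 0.19, limma adjusted p = 0.0697). It passed without the 3 muscle-rich libraries (log2 change -0.66, adjusted p = 0.0348). Sdhb and Sdhd, subunits of succinate dehydrogenase, stood at -0.53 and -0.48 in log2 (limma adjusted p = 0.0921 and 0.139). Dlst, the second subunit of the 2-oxoglutarate dehydrogenase complex, averaged 24.1 ± 2.21 FPKM in Ad-GHRKO and 31.7 ± 2.64 FPKM in Flox (SD, n = 5 each; log2 change -0.38, adjusted p = 0.122).

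Among carriers and enzymes that feed or drain the cycle, the largest log2 change was that of the citrate carrier. Of 22 listed, 19 were tested, 2 fell, 0 rose and 17 did not pass, and the median log2 change was -0.08. Over all genes 1.42% were called lower and 0.774% higher. Slc25a1, the mitochondrial citrate carrier, fell to 38.2, 87.1, 58.8, 78.8 and 39.5 FPKM in Ad-GHRKO libraries 1 to 5, against 139.5, 294, 264.5, 275 and 322 FPKM in Flox libraries 1 to 5 (log2 change -2.10, SE 0.29, limma adjusted p = 0.00435). The groups did not overlap, as for 3.35% of all genes in this direction, and Slc25a1 passed under every alternative run. Pcx, pyruvate carboxylase, which refills oxaloacetate, averaged 128 ± 43.9 FPKM in Ad-GHRKO and 327 ± 103 FPKM in Flox (log2 change -1.34, adjusted p = 0.0436). With the 3 muscle-rich libraries left out, Pcx no longer passed (log2 change -1.06, adjusted p = 0.117), nor did it in 7 of the 10 fits that each lacked 1 library (highest adjusted p = 0.115). Acly did not pass and is named after its values were seen. This enzyme, which splits citrate in the cytosol, averaged 34.2 ± 7.25 FPKM in Ad-GHRKO and 143 ± 96.5 FPKM in Flox (log2 change -1.73, adjusted p = 0.0923), with 29.3 FPKM in Flox 1 and 297 FPKM in Flox 5.

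Of 29 genes of mitochondrial content and biogenesis, 28 were tested, 0 passed in the limma fit and 6 were lower at an unadjusted p of 0.05, against 8.49% of all genes (median log2 change -0.14), while voom called Ppargc1b as lower. Ppargc1b, a coactivator of mitochondrial gene expression, had 0.566 to 1.07 FPKM in Ad-GHRKO and 1.42 to 3.31 FPKM in Flox (limma adjusted p = 0.0629), and Slc25a5, an adenine nucleotide carrier, 70.5 to 132 FPKM in Ad-GHRKO and 169 to 205 FPKM in Flox (adjusted p = 0.0678). In both, every Ad-GHRKO library lay below every Flox library, as in 4 of the 28 tested here and 3.35% of all genes tested. Both passed without the 3 muscle-rich libraries (adjusted p = 0.0475 and 0.0353).

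The genes most like a member were taken as those with the smallest root mean square difference between profiles of log2(FPKM + 1), each centred on its mean, over the 10 libraries. Cox7b and Timm8b were nearest to Cs (0.10003 and 0.104), Ecsit and Cyc1 to Mdh2 (0.0827 and 0.0856), and Atp5b and Sdhd to Fh1 (0.0881 and 0.0928). Mfn2 and Tmem109 were nearest to Ogdh (0.0484 and 0.0869), Ndufaf6 and Idh3a to Suclg1 (0.0770 and 0.112), and Gfm1 and Sod2 to Idh3a (0.102 and 0.104). Laptm4b and Lsm12 were nearest to Suclg2 (0.0839 and 0.0897), Phyh and Gm10138 to Idh2 (0.104 and 0.106), and Pgam1-ps2 and Mpp1 to Idh1 (0.131 and 0.132). Over the 7 libraries that are not muscle-rich the nearest gene was another in each case except Ogdh, where it was again Mfn2 (0.0535). There, Prdx3 was nearest to Suclg2 (0.0389) and Ndufs5 to Fh1 (0.0264), and Idh3g was the second nearest to Mdh2 (0.0591).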

How the data were processed

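The deposited table holds FPKM values per gene for the 10 libraries, as made by the authors. The submitters' processing notes name GRCm39, but 99.54% of the gene IDs have the coordinates of GENCODE M21 on GRCm38, the build printed here. Aligner, counter and use of strand were not stated. Multiplying FPKM by exon length gave whole reads, within 0.01, for 99.43% to 99.49% of values per library. Genes at 1 FPKM or more in at least 5 libraries (12785) were tested on log2(FPKM + 1), a scale that understates changes of low genes, with limma 3.58.1 in R 4.3.3 and Benjamini-Hochberg adjustment at 0.05. The 3 ratios used exact two-sided permutation tests over 252 assignments. Tables and figures used Python 3.11.15, pandas 2.3.3, numpy 2.4.6 and matplotlib 3.10.9. Alternatives were the pseudocount, filter, scaling, a muscle covariate, a replicate block, each library left out, the muscle-rich libraries left out and limma voom on recovered reads, the last 2 kinds added after the data were seen. The 9 transcripts and all gene lists were chosen with earlier results of these data known. Named from the other lists were genes past the threshold (up to 4), or with none those with the smallest p (4 cycle subunits, otherwise 2), plus Sucla2, and the 2 genes nearest to each transcript. No libraries held identical values. A single gene of the linked list is counted but not reported here.

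Summed FPKM of the other marker lists was 126 to 391 in Ad-GHRKO and 76.1 to 247 in Flox for macrophages. For B cells it was 2.12 to 13.4 in Ad-GHRKO and 5.17 to 35.8 in Flox, and for T cells 2.76 to 8.47 in Ad-GHRKO and 2.92 to 14.4 in Flox. Epithelial genes summed to 0.179 to 4.08 in Ad-GHRKO and 0.317 to 3.15 in Flox, endothelial genes to 76.7 to 178 in Ad-GHRKO and 70.8 to 154 in Flox, and progenitor genes to 384 to 740.4 in Ad-GHRKO and 394 to 1038 in Flox.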

Additional observations from a re-analysis of the deposited data

Results flagged for a closer look

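In 3 of 48 groups of 5 libraries examined, 1 library stood apart from the rest by Dixon's criterion, which chance meets in about 1 of 20 groups. Slc25a5 was at 70.5 FPKM in Ad-GHRKO 1, the lowest of its group. Fabp4 was at 842 FPKM in the same library, also the lowest of its group. Ppargc1b was at 3.31 FPKM in Flox 3, the highest of its group. Both libraries are muscle-rich, and the part of muscle in these values was not tested.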

How the results depend on the processing

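Of 198 values of the 9 transcripts under 22 alternatives, 182 kept direction and side of the threshold, 15 changed sign and 1 passed (Mdh2 without Ad-GHRKO 1); Cs then had an adjusted p of 0.050005 and did not pass. The count over all genes, 280, became 117 with no filter, 547 with median ratio scaling, 565 with quantile normalization, 833 with the muscle covariate, 777 without the 3 muscle-rich libraries, 675 without the 4 with muscle reads, and 116 to 1185 with single libraries left out (1185 without Ad-GHRKO 1; 116, 154 and 134 without Ad-GHRKO 3, 4 and 5; 135, 153, 137 and 167 without Flox 2, 3, 4 and 5). Same-numbered libraries did not all deviate together from their group means (r from -0.49 to 0.39, with 0.39 for number 2 and 0.28 for number 4). Values of mixed sign cannot settle whether numbers pair samples. A replicate block gave 85 calls over all genes, 0 of the 9, 0 other subunits and 1 linked gene. The ratio p-values with that block were 0.5, 0.375 and 0.812.

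With single libraries left out, 0 to 1 of the 9 passed, 0 to 4 other subunits, 1 to 5 linked genes and 0 to 3 mitochondrial content genes, the highest without Ad-GHRKO 1, or Flox 1 for linked genes. Other subunits called were 1 with no filter (Ogdhl), 1 with median ratio scaling, 1 with quantile normalization and 1 without the 3 or the 4 muscle libraries (Aco1 in each), and 2 with the muscle covariate. Linked genes were 1 with no filter and 4 with the covariate. Mitochondrial content genes were 1 with median ratio scaling, 2 with quantile normalization, 3 with the covariate, 2 without the 3 libraries, 1 without the 4 and 1 by voom. The call of Pcx also ended with no filter, in TPM, with the block (adjusted p = 0.0878), without the 4 muscle libraries (0.182) and with any of 7 single libraries left out. The causes were not tested.

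Without the 3 muscle-rich libraries, log2 ratios differed by -0.36 for Suclg2 to Sucla2 and -0.12 for Idh2 to Idh3a, and Idh2 stood at -0.0029. Other sign changes were -0.014 for Idh3a with median ratio scaling, 0.038 for Suclg1 and 0.049 for Sucla2 in TPM, and 0.041 for Ogdh and 0.028 for Suclg1 without the 4 libraries. Leaving out single libraries gave -0.42 (without Flox 5) to -0.15 (without Ad-GHRKO 1) for Suclg2 to Sucla2, -0.42 (without Ad-GHRKO 5) to -0.073 (without Ad-GHRKO 1) for Idh1 to Idh2, -0.16 to 0.23 for Idh2 to Idh3a, -0.27 to 0.081 for Idh1, -0.033 to 0.17 for Idh2, -0.058 to 0.13 for Idh3a, -0.26 to 0.038 for Ogdh, -0.17 to 0.014 for Suclg1 and -0.19 to 0.037 for Sucla2.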
